A study of Sus scrofa domesticus with 6 samples.

Results

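The goblet cell and mucus genes described here are 10 genes, taken by symbol from the 30352 named rows of a pig gene table: MUC2, FCGBP, CLCA1, ZG16, TFF3, AGR2, ATOH1, SPDEF, FOXA3 and CREB3L1. Each symbol matched 1 row, and all 10 passed the filter on low counts that left 18197 genes for testing. Bulk RNA sequencing was done on small intestine from 6 wild type Gottingen minipigs aged 6 months, with 2 animals in each of 3 groups, and each library came from a separate animal. The control animals carry no treatment in their labels. The IR animals received 15 Gy of cobalt-60 gamma rays to the abdomen. The IR_Pra animals received the same irradiation and oral pravastatin, a drug that blocks cholesterol synthesis, at 40 mg per day for 2 weeks. All tissue was taken on day 14. The labels name no segment or layer of the small intestine, and tissue of this kind holds epithelium, connective tissue, muscle and immune cells together.

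Goblet cells are the mucus-secreting cells of the intestinal epithelium. They arise from crypt progenitors that escape Notch signalling and switch on the transcription factor ATOH1, after which SPDEF, FOXA3 and CREB3L1 drive their maturation and the build-up of their secretory machinery. The mature cell folds and exports very large glycoproteins, chiefly the gel-forming mucin MUC2, and packs them with accessory proteins into granules whose release forms the mucus layer over the villi and crypts.

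The libraries held between 48600424 and 73975174 counts. The IR animals differed from each other more than the animals of the other groups did: the median gene differed by 0.66 (log2) between IR 1 and IR 2, against 0.28 within control and 0.32 within IR_Pra. In IR 1 the ratio to control also followed transcript length, with a median of 0.65 (log2) for the 10% of genes with the shortest transcripts and -0.71 for the 10% with the longest. The same medians lay between -0.15 and 0.16 in the other libraries. General epithelial genes, 16 in number, summed to 9218 to 10293 CPM in control, 9503 in IR 1, 1902 in IR 2 and 8673 to 10472 in IR_Pra. Of these genes 15 passed the filter, and TSPAN8, with 0 counts in some libraries, did not.

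The 10 genes did not move as a block after irradiation. The secreted proteins MUC2, FCGBP, CLCA1 and TFF3 were above the control mean in IR 1 and 4.51-fold to 9.74-fold below it in IR 2, and for none of them did the difference between the groups pass the test. The 2 genes that did pass are transcription factors, and they moved in opposite directions: ATOH1 fell from 34.9 ± 6.53 CPM (SD, n = 2) in control to 10.5 ± 3.10 in IR, and CREB3L1 rose from 26.3 ± 3.26 to 59.5 ± 1.87 CPM. In IR_Pra, ATOH1 was at 29.7 ± 7.13 CPM and CREB3L1 at 42.5 ± 0.55 CPM. CPM are read counts scaled to library size with TMM factors, and a gene was called where the Benjamini-Hochberg adjusted p of edgeR's quasi-likelihood test over all 18197 genes was under 0.05.

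**Figure D1:**
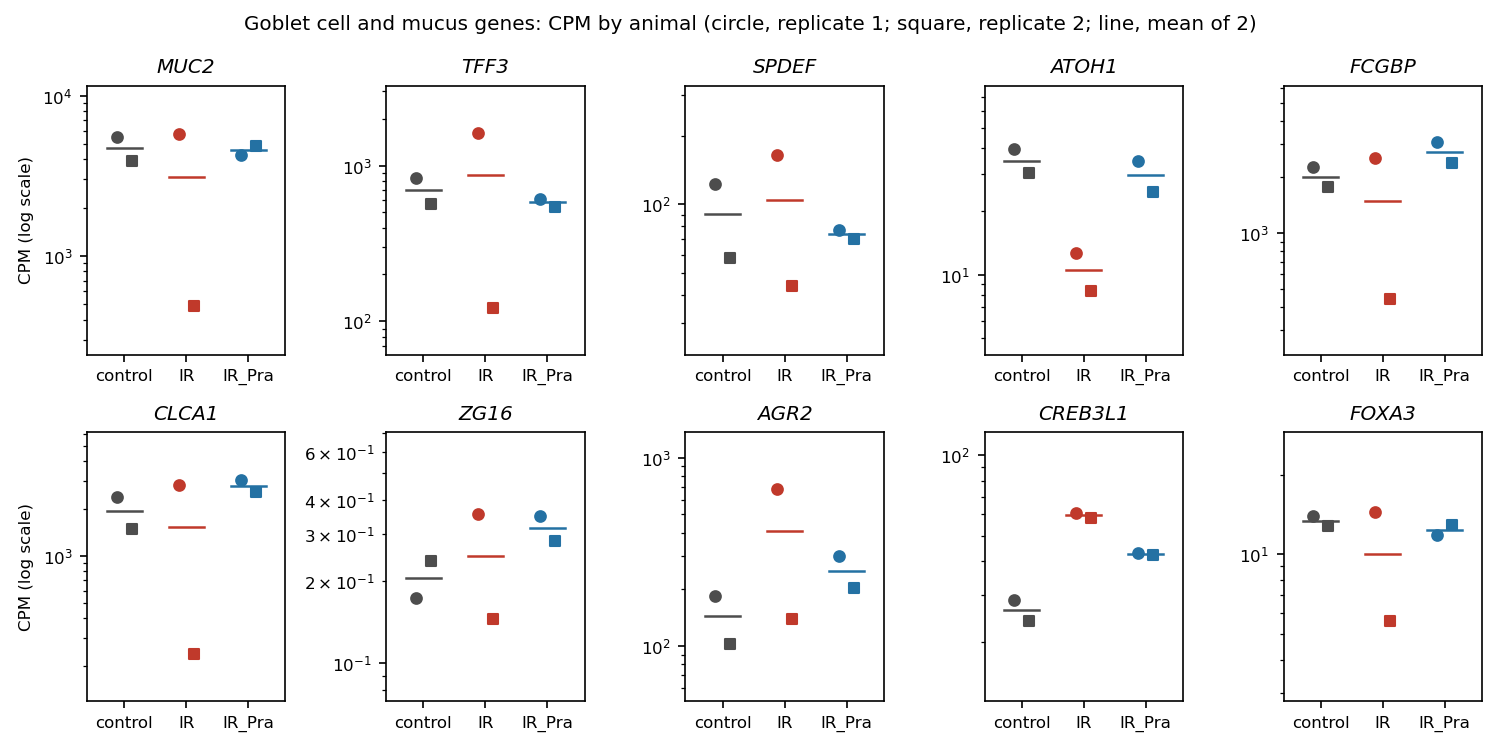
CPM of the 10 goblet cell and mucus genes in each of the 6 animals on log axes that differ between panels, with circles for replicate 1, squares for replicate 2 and lines for the group means. The IR animals lie far apart for MUC2, TFF3, FCGBP, CLCA1 and AGR2 and close together for CREB3L1 (60.8 and 58.2 CPM) and ATOH1 (12.7 and 8.32 CPM).

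Among the secreted proteins, MUC2 (Entrez 100127145, Sscrofa11.1 chromosome 2, 689363 to 719542) forms the polymer that gives intestinal mucus its gel structure. It was counted at 5524 and 3890 CPM in the controls, 5740 and 483 CPM in the IR animals and 4266 and 4827 CPM in the IR_Pra animals. IR 1 was above both controls in CPM but below control 1 in FPKM (296 against 326). IR 2 was 11.9-fold below IR 1 and under every other library. The difference between IR and control was -0.60 ± 1.09 (log2 fold change ± SE, edgeR adjusted p = 0.743). With IR 1 left out it was -3.29, and with IR 2 left out it was 0.28. The result for the group thus depended on which IR animal was read. In such a fit the lone IR animal was assumed to vary like the other groups, so no p is given.

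FCGBP (Entrez 100625830, chromosome 6, 48331753 to 48375099), a large protein rich in von Willebrand D domains that is bound to MUC2 in mucus, had 2263 and 1758 CPM in control, 2528 and 446 after IR, and 3083 and 2394 after IR_Pra. CLCA1 (Entrez 397284, chromosome 4, 129621259 to 129655385), a secreted metalloprotease that remodels the MUC2 network, had 2362 and 1490 CPM in control, 2820 and 238 after IR, and 3059 and 2561 after IR_Pra. For both genes IR 1 was above the controls in CPM, IR 2 was the lowest library, and IR_Pra was above both controls. In FPKM FCGBP was lower in IR 1 than in control 1 (266 against 272). The IR against control differences were -0.44 ± 0.82 for FCGBP (edgeR adjusted p = 0.751) and -0.33 ± 1.04 for CLCA1 (adjusted p = 0.857). The gene ODF2L spans the CLCA1 locus (129396051 to 129805612), and whether the authors' counting used strand was not given in the sources used here. ODF2L itself had between 7.09 and 14.1 CPM.

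TFF3 (Entrez 100627480, chromosome 13, 205641038 to 205644333) is a small trefoil peptide that is secreted with the mucins and promotes the closing of epithelial wounds. Its values were 830 and 563 CPM in control, 1619 and 123 after IR, and 614 and 545 after IR_Pra. IR 1 was the highest library and IR 2 the lowest, 13.2-fold apart, which was the widest gap within IR among the 10 genes. The IR against control difference was 0.32 ± 1.02 (edgeR adjusted p = 0.859). Its sign turned with the animal that was left out: -2.51 without IR 1 and 1.21 without IR 2.

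ZG16 (Entrez 100620560, chromosome 3, 18018866 to 18019501), a lectin that binds Gram-positive bacteria in mucus, was barely detected. Its 6 libraries held 10, 15, 19, 11, 18 and 15 reads in the order control, IR and IR_Pra, or 0.14 to 0.35 CPM. At this depth no difference between the groups could be shown, and the IR against control value was 0.24 ± 0.75 (edgeR adjusted p = 0.86).

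AGR2 (Entrez 100514482, chromosome 9, 86042070 to 86053893), a protein disulfide isomerase of the endoplasmic reticulum that MUC2 folding requires, had 185 and 102 CPM in control, 680 and 139 after IR, and 299.5 and 203 after IR_Pra. IR 1 was above every other library, but IR 2 lay between the controls. The difference of 1.51 ± 0.75 between IR and control was not past the threshold (edgeR adjusted p = 0.232). It was 2.24 without IR 2 and -0.05 without IR 1.

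Of the transcription factors, ATOH1 (Entrez 100515497, chromosome 8, 125768232 to 125770619) stands at the top of the secretory programme and is made in the common progenitors of goblet, Paneth and enteroendocrine cells as well as in goblet cells. It had 39.6 and 30.3 CPM in control, 12.7 and 8.32 after IR, and 34.7 and 24.6 after IR_Pra. Both IR animals were below all 4 others, and IR 1, in which MUC2, TFF3, FCGBP and CLCA1 were above the control mean, was among the low ones. In IR ATOH1 fell by 1.73 ± 0.34 on the log2 scale, a 3.32-fold lower mean (edgeR adjusted p = 0.0463).

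CREB3L1 (Entrez 100516663, chromosome 2, 16186206 to 16220948), a membrane-bound factor released from the endoplasmic reticulum to switch on secretory genes, is also known from collagen-secreting cells such as osteoblasts and fibroblasts. It had 28.6 and 24.02 CPM in control, 60.8 and 58.2 after IR, and 42.9 and 42.1 after IR_Pra. The 3 groups did not overlap, with IR highest, IR_Pra in between and control lowest. CREB3L1 rose in IR by 1.18 ± 0.22 on the log2 scale, a 2.26-fold higher mean (edgeR adjusted p = 0.0437). The animals of the IR group, 11.9-fold apart for MUC2, differed by 1.045-fold for CREB3L1.

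SPDEF (Entrez 100153013, chromosome 7, 30515925 to 30538095), the factor that matures goblet and Paneth cells downstream of ATOH1, had 122 and 58.2 CPM in control, 165 and 43.7 after IR, and 77.0 and 70.6 after IR_Pra. FOXA3 (Entrez 100512416, chromosome 6, 52181095 to 52188777), a forkhead factor of goblet cells, had 14.0 and 12.8 CPM in control, 14.4 and 5.59 after IR, and 11.8 and 12.9 after IR_Pra. For both, IR 2 was the lowest library. IR 1 was the highest for SPDEF. For FOXA3 it was nearly level with control 1 in CPM and below it in FPKM (6.17 against 6.85). Neither gene passed the test (0.21 ± 0.65 and -0.42 ± 0.46, edgeR adjusted p = 0.855 and 0.568). SPDEF already varied 2.1-fold between the controls, the widest control gap of the 10 genes.

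In all, 2 of the 10 genes were called in IR against control, 1 higher and 1 lower, where 6.06% of all genes tested were called, 3.39% as higher and 2.68% as lower. The same 2 genes were the ones whose groups did not overlap, against 59.8% of all genes, and the ones with an unadjusted p under 0.05, against 30.2%. The median log2 fold change of the 10 was -0.06, beside 0.03 for all genes, with 5 positive and 5 negative. Both calls lay close to the threshold. They were lost when control 1, control 2, IR_Pra 1 or IR_Pra 2 was left out, in fits that called no gene at all. Without IR 1 the differences were -2.07 for ATOH1 and 1.14 for CREB3L1, and without IR 2 they were -1.46 and 1.21. In all these fits the lone library of a group was assumed to vary like the other groups.

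Levels of different genes can be compared per length of transcript, as FPKM. In both controls the order from the highest was TFF3 (1009 and 696 FPKM), CLCA1 (758 and 486), MUC2 (326 and 234), FCGBP (272 and 215), AGR2 (216 and 122), SPDEF (72.6 and 35.5), ATOH1 (15.8 and 12.3), CREB3L1 (10.03 and 8.56), FOXA3 (6.85 and 6.37) and ZG16 (0.353 and 0.493). The control values of TFF3 and CLCA1, of MUC2 and FCGBP, and of FCGBP and AGR2 overlapped, so these neighbours were not apart beyond their spread. In IR 2 the order was different: AGR2 came first at 184 FPKM, above TFF3 at 154, CLCA1 at 78.8, FCGBP at 55.3 and MUC2 at 29.4, and CREB3L1 at 21.0 was above ATOH1 at 3.42. CREB3L1 was above ATOH1 per length in all 4 irradiated animals, at 18.6 against 4.42 FPKM in IR 1 and at 16.1 and 15.4 against 14.8 and 10.3 in IR_Pra, and below it in both controls. IR_Pra differed from control at the top of the order too, with CLCA1 (1051 and 858 FPKM) above TFF3 (799 and 691).

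The transcripts of the 10 genes span nearly the whole range of lengths, and this mattered in IR 1. TFF3 (820 nt) and AGR2 (855 nt) were longer than only 5.0% and 5.56% of genes, while FCGBP (8280 nt) and MUC2 (16883 nt) were longer than 92.5% and 99.5%. When the trend with length was removed from each library, MUC2 in IR 1 was 9198 CPM in place of 5740, and AGR2 was 493 in place of 680. The IR against control differences of MUC2 (0.20), FCGBP (0.09), TFF3 (-0.22) and SPDEF (-0.08) then had the opposite sign and were not past the threshold. ATOH1 and CREB3L1, of middle length (2499 and 2844 nt), kept their calls (-1.82, edgeR adjusted p = 0.0466, and 1.14, adjusted p = 0.0461).

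**Figure D2:**
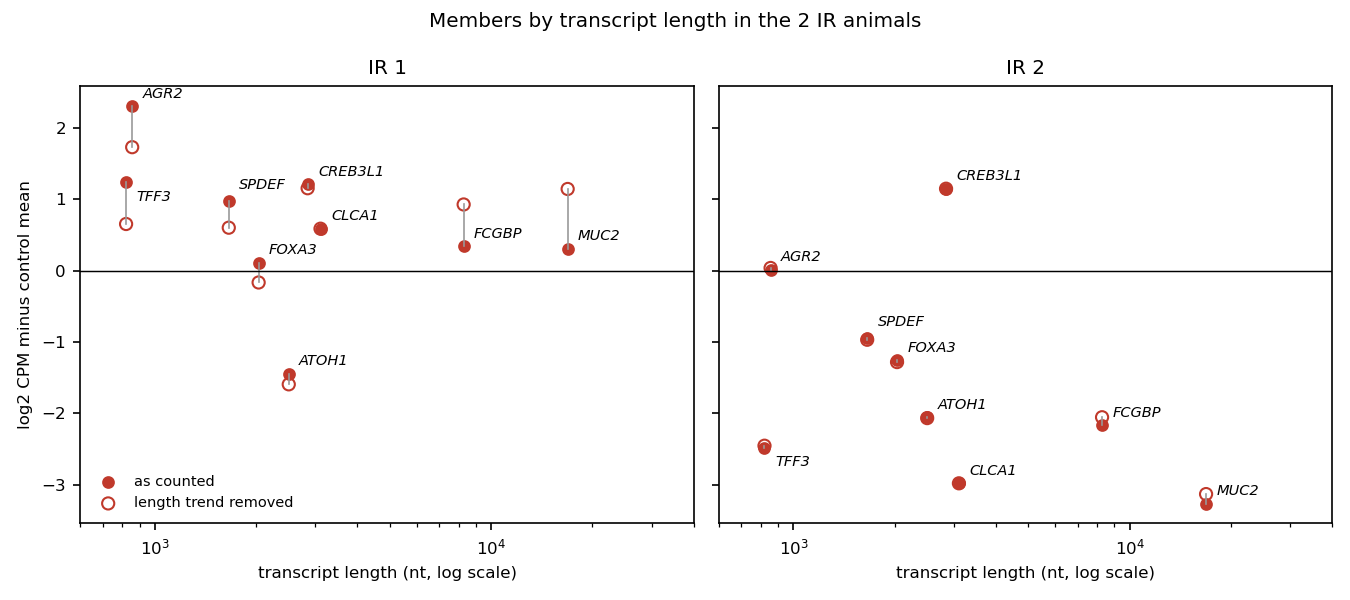
Difference from the control mean (log2 CPM) against transcript length (nt, log axis) for 9 of the genes in IR 1 and IR 2, with filled points as counted and open points after removal of the trend with length. ZG16 has no length and is left out. In IR 1 removal raises MUC2 and FCGBP and lowers AGR2, TFF3 and SPDEF. In IR 2 it moves the points little.

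Ratios between 2 of the genes within a library do not depend on the scaling of that library. ATOH1 had 32.4 and 52.1 reads per 100 reads of SPDEF in control, 7.70 and 19.0 after IR, and 45.1 and 34.9 after IR_Pra. Both IR animals were below all the others, also with the length trend removed (8.73 and 18.7, against 31.6 to 50.5 elsewhere). The share of ATOH1 relative to a factor that acts after it was thus lower in IR 1 and IR 2 alike, although SPDEF itself was 3.77-fold apart between them.

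AGR2 had 8.18 and 5.81 reads per 100 reads of FCGBP in control, 26.9 and 31.1 after IR, and 9.71 and 8.49 after IR_Pra. IR was above both other groups, by less once the length trend was removed (14.1 and 34.4 in IR, and 6.73 to 12.6 in the others). TFF3 and AGR2, whose transcripts are nearly equal in length, stood at 448 and 551 reads of TFF3 per 100 of AGR2 in control, 238 and 88.4 after IR, and 205 and 268 after IR_Pra. All 4 irradiated animals were below both controls. With 2 animals against 2 the smallest exact permutation p (two-sided) is 0.333, so these ratios are given as descriptions. They were chosen after their values had been seen.

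Against MUC2, 6 of the other 9 genes had a higher ratio in both IR animals than in both controls as counted: TFF3, SPDEF, CLCA1, ZG16, AGR2 and CREB3L1. MUC2 itself was 9.74-fold below the control mean in IR 2. The share of all genes that rose against MUC2 was not computed, so this count is not read as particular to the 6 genes. For ZG16 control 2 (15 reads) and IR 1 (19 reads) were nearly level, at 0.00612 and 0.00615 per 100 of MUC2. With the length trend removed AGR2 was the only one of the 8 genes with a length whose ratio was higher in both IR animals than in both controls. It stood at 5.36 and 32.1 reads per 100 of MUC2 in IR against 4.10 and 3.11 in control, and IR_Pra (9.85 and 4.10) then overlapped with IR. In IR 2, where MUC2 was at its lowest with 36607 reads, CREB3L1 had 12.0 reads per 100 of MUC2, against 0.52 and 0.62 in the controls.

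**Figure D3:**
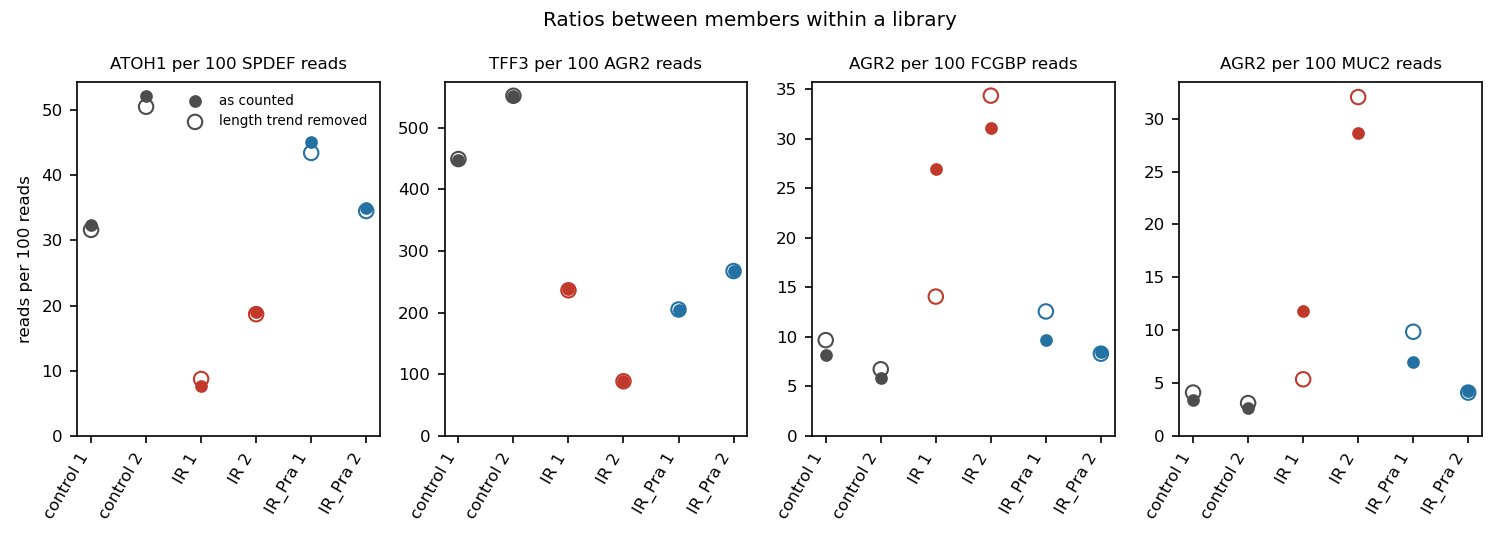
Reads of 1 gene per 100 reads of another in each of the 6 libraries, on linear axes from 0 that differ between panels, with filled points as counted and open points after removal of the length trend. ATOH1 per SPDEF is lowest in the IR animals (7.70 and 19.0), TFF3 per AGR2 is lower in all 4 irradiated animals than in the controls, and AGR2 per FCGBP is highest in IR.

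The mean log2 CPM of the 16 pan-epithelial genes lay 0.11 below the control mean in IR 1 (-0.11), far below it in IR 2 (-2.12) and near it in IR_Pra (0.08 and -0.14). TSPAN8, which did not pass the filter, is part of this mean, at -1.27 in IR 1, IR 2 and IR_Pra 2. Within that list the lowest and highest genes in IR 2 were VIL1 at -4.07 and KRT18 at -0.27, named here after their values were seen. Genes of absorptive enterocytes, the main cell of the villus, gave a wider split: 11 of them summed to 23730 and 26251 CPM in control, 37693 and 942 after IR, and 16468 and 17477 after IR_Pra, with a median of -0.41 (log2) from the control mean in IR 1 and -5.37 in IR 2, beside 0.65 and -1.65 for the 10 goblet cell and mucus genes. None of the 11 passed the test in IR against control, beside 6.06% of all genes (edgeR, 1 at an unadjusted p under 0.05, beside 30.2%). Their part in the values of the 10 genes was not tested. In bulk tissue fewer cells of a type and less RNA per cell cannot be told apart.

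Measured against that epithelial mean, and against the controls, the 10 genes spread in both directions. In IR 2 MUC2 (-1.14), CLCA1 (-0.86) and TFF3 (-0.36) lay below it, FCGBP (-0.04) and ATOH1 (0.06) beside it, and FOXA3 (0.86), SPDEF (1.17), ZG16 (1.71), AGR2 (2.13) and CREB3L1 (3.27) above it. In IR 1 ATOH1 was the only one below it (-1.34), while AGR2 was furthest above (2.41), followed by TFF3 (1.35), CREB3L1 (1.32) and SPDEF (1.08). The controls themselves reached 0.61 from their mean (SPDEF). AGR2, CREB3L1, SPDEF, ZG16 (0.81 in IR 1) and FOXA3 (0.22 in IR 1) were above the epithelial mean in both IR animals, and ATOH1 was below it in IR 1 and level with it in IR 2. ZG16 rests on 19 and 11 reads in the IR animals, so nothing is read from its values, though it is part of the median. The median of the 10 genes on this scale was 0.61 higher in IR than in control (SD of animals 0.33), and 1.19 higher with EPCAM, CDH1 and CLDN7 alone as the reference.

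**Figure D4:**
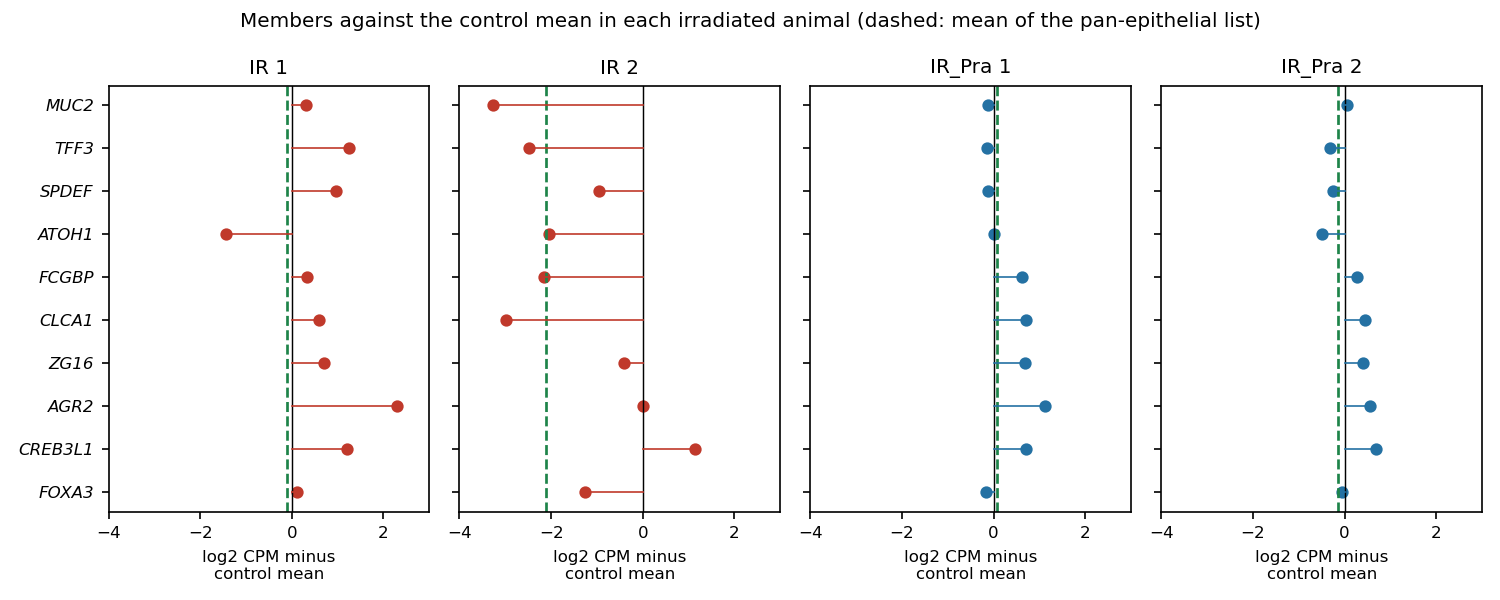
Difference of each gene from the control mean (log2 CPM) in the 4 irradiated animals, with a dashed line at the mean of the pan-epithelial genes (-0.11 in IR 1, -2.12 in IR 2). CREB3L1 is above the control mean in all 4, and ATOH1 is below it in both IR animals and on the dashed line in IR 2.

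Markers of other cell types moved with the IR group as well. The summed level of 6 smooth muscle genes was 5604 to 11506 CPM in control, 31429 to 66205 in IR and 13268 to 19176 in IR_Pra, and that of 6 fibroblast genes was 1825 to 3135, 7921 to 24596 and 4642 to 6850 CPM. Of these lists 1 of 6 (ACTA2) and 0 of 6 passed the test as higher in IR, beside 3.39% of all genes, and none of their genes was at 0 in any library. In both IR animals all 6 smooth muscle genes and 5 fibroblast genes were above both controls, and 1 fibroblast gene was below both. Of all genes, 59.8% had groups that did not overlap. Macrophage genes (5 of 6 called higher, beside 3.39% of all genes) summed to 710 to 721 CPM in control, 3462 to 3658 in IR and 1194 to 1812 in IR_Pra. B cell genes (4 of 5 called lower, beside 2.68%) summed to 233 to 384, 15.0 to 16.1 and 119 to 310 CPM. The order of the groups for CREB3L1 was that of the smooth muscle, fibroblast and macrophage sums, and their part in its difference was not tested.

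The IR_Pra animals were compared with the IR animals to ask whether pravastatin changed the irradiated tissue. None of the 10 genes passed the test, where 0.00550% of all genes tested, 1 gene, did. ATOH1 came nearest: it was 2.82-fold higher in IR_Pra than in IR, with both IR_Pra animals above both IR animals (1.5 ± 0.33 on the log2 scale, edgeR adjusted p = 0.0921). It was the 1 gene of the 10 with an unadjusted p under 0.05, beside 24.5% of all genes. DESeq2 called it (adjusted p = 0.00563), but DESeq2 called 2872 of 18197 genes in this comparison. With limma voom it did not pass (adjusted p = 0.101). CREB3L1 was lower in both IR_Pra animals than in both IR animals (-0.48 ± 0.21, edgeR adjusted p = 0.231). These were the 2 genes whose groups did not overlap, beside 53.9% of all genes tested.

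For the secreted proteins the IR_Pra against IR values were 0.55 ± 1.09 for MUC2, 0.88 ± 0.82 for FCGBP, 0.88 ± 1.05 for CLCA1 and -0.59 ± 1.02 for TFF3 (edgeR adjusted p 0.538 to 0.785). AGR2 gave -0.70 ± 0.73 (adjusted p = 0.582). The IR_Pra animals lay between IR 1 and IR 2 for MUC2, TFF3, SPDEF, AGR2, FOXA3 and ZG16. Without IR 1 6 of the genes were called higher in IR_Pra than in IR (ATOH1, CLCA1, FCGBP, FOXA3, MUC2 and TFF3), in a fit that called 9.88% of all genes higher. Without IR 2 TFF3 alone was called, as lower, in a fit that called 5.78% of all genes lower. Within the IR_Pra group the median gene of the 10 differed by 0.22 (log2) between the animals, against 2.1 within IR and 0.45 within control.

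IR_Pra was also compared with control, that is, with animals that had neither treatment. None of the 10 genes passed the test, and 0% of all genes did. By edgeR's unadjusted p 1 of the 10 (CREB3L1, 0.69 ± 0.21) was under 0.05, beside 3.42% of all genes. The IR animals, which lay furthest apart, helped set the spread in this test. With the 4 libraries of the comparison alone the SE for MUC2 was 0.31 in place of 1.09. In that fit 1668 genes, in place of 623, had an unadjusted p under 0.05 (edgeR), and 0 passed adjustment. In 5 of the 10 genes the groups did not overlap, beside 40.8% of all genes, and in each of them IR_Pra was the higher group, beside 20.8%. These were FCGBP, CLCA1, ZG16, AGR2 and CREB3L1, with means 1.36-fold, 1.46-fold, 1.52-fold, 1.75-fold and 1.61-fold higher. ZG16 had 10 and 15 reads in control and 18 and 15 in IR_Pra. Its groups were thus parted only by the scaling to library size, and no difference is read from it. FCGBP and CLCA1 are secreted into the mucus with MUC2, and MUC2 itself stood at 0.966 of its control mean. The comparisons share the IR, control and IR_Pra animals with each other, so they are not independent.

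Genes known from goblet cells but not among the 10 were read from a list of 30, of which 27 were in the table and tested. In IR against control 1 was called higher and 2 lower, beside 3.39% and 2.68% of all genes, with a median of -0.17 (0.03 for all genes). SCIN, which cuts actin filaments and is known from secretory cells, had 383 and 435 CPM in control, 93.1 and 51.8 after IR, and 351 and 238 after IR_Pra, and fell by 2.50 ± 0.40 (edgeR adjusted p = 0.0384). KLF4, a factor of goblet cell differentiation, had 117 and 221 CPM in control, 42.6 and 18.6 after IR, and 118 and 114 after IR_Pra, and fell by 2.46 ± 0.50 (adjusted p = 0.0489). Like ATOH1, both were low in IR 1 and in IR 2, and neither group overlapped with IR.

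HES6, a target of ATOH1 in secretory progenitors that opposes HES1, went the other way. It had 9.35 and 9.70 CPM in control, 22.1 and 40.4 after IR, and 11.3 and 13.0 after IR_Pra, and rose by 1.71 ± 0.35 (edgeR adjusted p = 0.0489). With the length trend removed KLF4 (-2.48, adjusted p = 0.0523) and HES6 (1.57, adjusted p = 0.0789) were outside the threshold, and SCIN (-2.51, adjusted p = 0.0431) was still called. None of the 27 passed in IR_Pra against IR, where SCIN (2.02 ± 0.39, adjusted p = 0.0814), HES6 (-1.36 ± 0.34, 0.102), KLF4 (1.92 ± 0.49, 0.103) and HEPACAM2 (1.86 ± 0.54, 0.121) had the smallest p. HEPACAM2, an adhesion molecule of secretory cells, had 65.7 and 59.6 CPM in control, 24.1 and 7.20 after IR, and 56.7 and 57.1 after IR_Pra.

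In 3 of the 27 genes both IR animals were above both controls and in 10 both were below, beside 59.8% of all genes with groups that did not overlap. A few secreted products lay far apart between the IR animals. REG4, a secreted lectin, had 1171 CPM in IR 1 and 111 in IR 2, beside 200 and 165 in control. SPINK4, a secreted protease inhibitor, had 975 and 77.7 CPM in IR and 300 and 161 in control. DMBT1, a scavenger receptor-like glycoprotein of mucus, had 655 and 60.6 CPM in IR and 47.3 and 18.4 in control, so that both IR animals were above both controls. These 3 were named after their values were seen, and none passed the test (edgeR adjusted p = 0.257, 0.467 and 0.126).

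Of 12 genes of secretory fate and Notch signalling, HES6 and KLF4, which belong to both lists, were the ones called in IR against control, 1 higher and 1 lower, beside 3.39% and 2.68% of all genes. In 2 of the 12 both IR animals were above both controls and in 4 both were below, beside 59.8% of all genes with groups that did not overlap. DLL1, a Notch ligand of secretory progenitors, had 14.1 and 10.3 CPM in control and 14.6 and 14.3 in IR (0.24 ± 0.27). HES1, the Notch target that represses ATOH1, had 12.5 and 18.2 CPM in control and 17.6 and 13.8 in IR (0.03 ± 0.30, edgeR adjusted p = 0.953). Both were named after their values were seen. JAG1, another ligand, had the smallest p after HES6 and KLF4 (-0.69 ± 0.26, adjusted p = 0.142).

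Mucins carry dense sugar chains that are started by GALNT enzymes and then lengthened and capped. Of 30 such enzymes tested, 3 were called higher and 1 lower in IR against control, beside 3.39% and 2.68% of all genes, with a median of -0.44. GALNT8, a member of the family that starts the chains, had 4.38 and 4.59 CPM in control, 0.167 and 0.225 after IR, and 4.56 and 4.54 after IR_Pra, and fell by 4.49 ± 0.41 (edgeR adjusted p = 0.0357). The control and IR_Pra animals were at 1 level and both IR animals far below it, and in IR_Pra against IR it was just outside the threshold (4.51 ± 0.41, adjusted p = 0.0612).

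The 3 enzymes called higher were not among those that start the chains. Of the 30 enzymes 9 had a positive and 21 a negative difference. In 6 both IR animals were above both controls and in 13 both were below. Of all genes, 59.8% had groups that did not overlap. ST3GAL4, which caps galactose with sialic acid, had 9.76 and 10.2 CPM in control and 23.8 and 37.1 in IR (1.61 ± 0.30, edgeR adjusted p = 0.0432). ST6GALNAC6, a sialyltransferase, had 24.9 and 29.4 CPM in control and 66.7 and 57.4 in IR (1.19 ± 0.24, adjusted p = 0.0482), and B3GNT3, which extends core chains, had 13.5 and 10.6 and then 26.9 and 39.7 (1.47 ± 0.30, adjusted p = 0.0493). All 3 were higher in both IR animals than in both controls, and ST6GALNAC6 had 55.7 and 45.3 CPM in IR_Pra. With the length trend removed GALNT8 and ST3GAL4 stayed past the threshold, while ST6GALNAC6 (1.12, edgeR adjusted p = 0.0514) and B3GNT3 (1.45, adjusted p = 0.0544) lay just outside it.

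**Figure D5:**
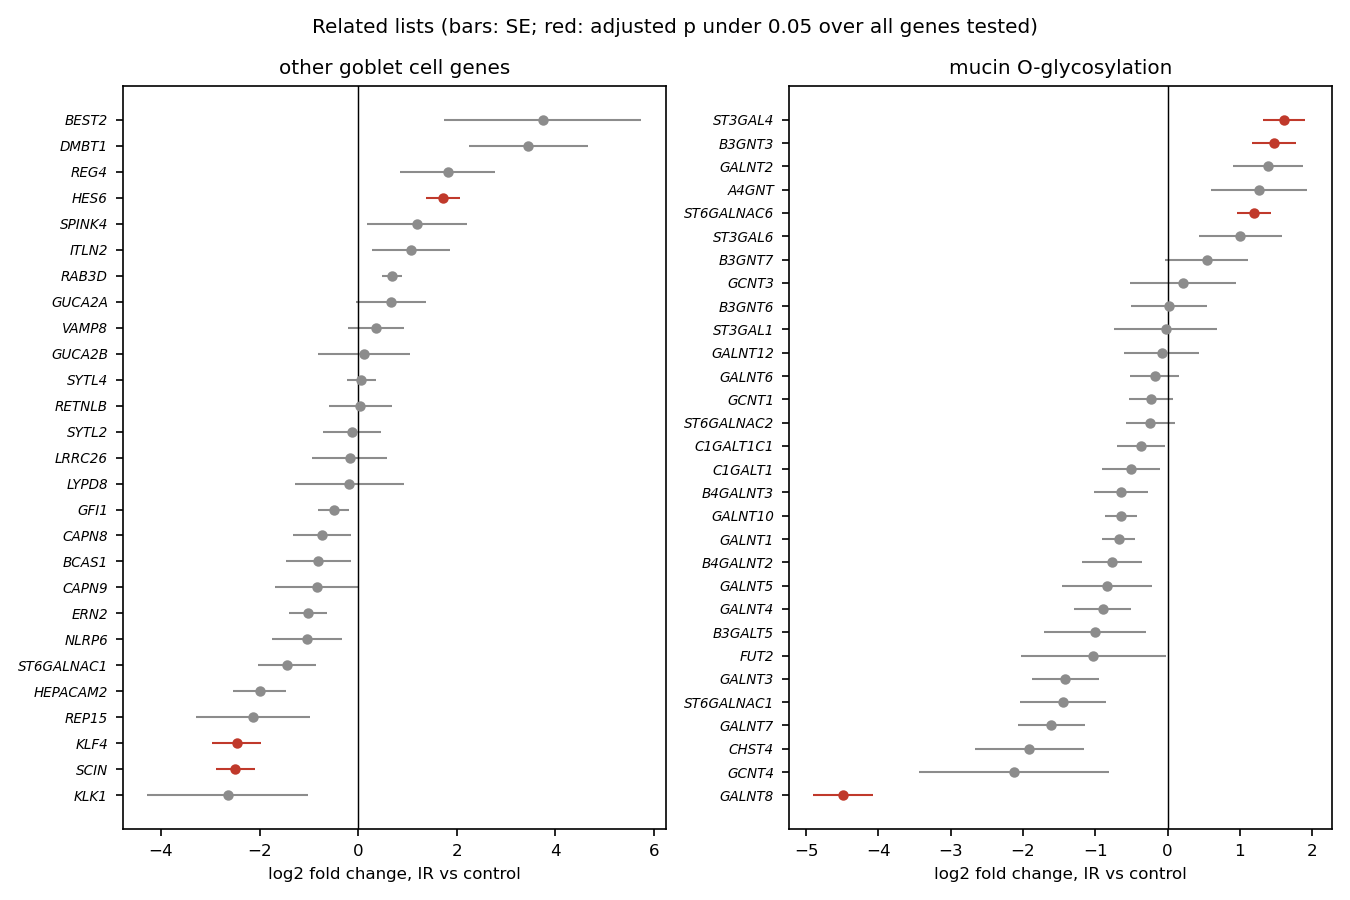
Log2 fold change of IR against control with its SE for 27 other goblet cell genes and 30 enzymes of mucin O-glycosylation, with genes of adjusted p under 0.05 in red. SCIN (-2.50), KLF4 (-2.46) and GALNT8 (-4.49) lie to the left, and HES6, ST3GAL4, ST6GALNAC6 and B3GNT3 to the right.

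Of 15 genes of mucus release and crosslinking 1 was called, as higher, beside 3.39% of all genes, with a median of -1.12 in IR against control. TGM3, a transglutaminase that crosslinks MUC2, had 2.44 and 1.60 CPM in control, 12.8 and 7.49 after IR, and 0.908 and 0.769 after IR_Pra, and rose in IR by 2.33 ± 0.44 (edgeR adjusted p = 0.0451). It was lowest in the IR_Pra animals (-3.60 ± 0.47 against IR, adjusted p = 0.0754). CFTR, the anion channel whose bicarbonate lets mucins unfold, had 79.7 and 95.2 CPM in control, 19.2 and 4.81 after IR, and 104 and 66.5 after IR_Pra, with -2.86 ± 0.66 just outside the threshold (adjusted p = 0.0594). CFTR was named after its values were seen.

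Membrane mucins, which line the brush border and are made by enterocytes too, gave 0 calls among 6 tested in IR against control (edgeR, 1 of them at an unadjusted p under 0.05, beside 30.2% of all genes), with a median of -1.06. MUC1, the one with the smallest p, had 1.54 and 4.08 CPM in control, 0.669 and 1.23 after IR, and 3.28 and 5.33 after IR_Pra (-1.56 ± 0.63, adjusted p = 0.163). MUC12 varied most, with 81.9 CPM in IR 1 and 0.264 in IR 2 beside 3.74 and 2.29 in control. MUC4, an epithelial mucin with an EGF-like domain, had 0.173 and 0.318 CPM in control, 0.297 and 0.634 after IR, and 2.37 and 1.63 after IR_Pra. It had the smallest unadjusted p of these mucins in IR_Pra against control (3.01 ± 0.64), which did not pass adjustment.

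Among 17 tested paralogues of the 10 genes, ATOH8 was the one called in IR against control, as higher, beside 3.39% of all genes. This basic helix-loop-helix factor of the ATOH family, known from endothelium and muscle among other tissues, had 7.86 and 6.05 CPM in control, 23.3 and 31.5 after IR, and 8.57 and 8.53 after IR_Pra (1.98 ± 0.29, edgeR adjusted p = 0.037), the opposite direction to ATOH1. The relatives of CREB3L1 did not pass: CREB3L4, the nearest of them to the threshold, had 0.61 ± 0.27 (adjusted p = 0.193). FOXA1, a relative of FOXA3, had 10.5 and 12.6 CPM in control, 6.02 and 4.36 after IR, and 18.8 and 11.4 after IR_Pra (-1.16 ± 0.36, adjusted p = 0.1).

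IL-13 and IL-4 are signals that raise goblet cell number, and IL-22 acts on the epithelium. IL13 had between 0.0519 and 0.919 CPM, and IL4 had 0 to 7 counts in a library and was not tested. IL22 had 6.00 CPM in IR 2 and 0.0318 to 0.519 CPM in the other 5 libraries (3.53 ± 1.56 in IR against control, edgeR adjusted p = 0.192). None of 14 genes of these pathways passed the test in IR against control (2 had an unadjusted p under 0.05, beside 30.2% of all genes). IL4R, the receptor chain for IL-4 and IL-13, had the smallest p, with 81.9 and 91.4 CPM in control and 39.8 and 39.7 in IR (-1.12 ± 0.30, adjusted p = 0.0723).

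The genes whose pattern over the 6 libraries was most like those of MUC2, TFF3 and SPDEF were found among 11492 genes of at least 5 CPM, by the root mean square difference of log2 CPM after centring on the control mean. For MUC2 these were HSD11B2 (0.092), an enzyme that inactivates cortisol, TM4SF20 (0.18), CAPN9 (0.21), a calpain of the digestive tract, SDCBP2 (0.22) and HAPLN4 (0.23). HSD11B2 had 120 and 84.2 CPM in control, 109 and 10.7 after IR, and 87.5 and 98.7 after IR_Pra, which is the course of MUC2 at a lower count. For TFF3 they were TMEM82, BICC1, TTC38, RXRG and GUCA2B (0.21 to 0.30), and for SPDEF BCAR3, PLVAP, INSIG1, CHKA and ELOVL1 (0.13 to 0.26). Among the 10 genes the nearest pairs were FCGBP with CLCA1 (0.37), MUC2 with CLCA1 (0.41) and SPDEF with FOXA3 (0.47), and the farthest was MUC2 with CREB3L1 (1.89). All points of a library share its depth and its epithelial content, so these values describe the 6 libraries only.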

How the data were processed

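RNA from small intestine of 6 minipigs was sequenced. Per the submitters' processing notes, the authors used bcl2fastq 2.20.0, Trimmomatic, HISAT2 2.1.0 and StringTie 2.1.3b. Those notes list Sscrofa11.1 and GRCh38 as builds, and what GRCh38 was used for was not given in the sources used here. Per the file headers, the deposited table holds a whole-number read count and an FPKM value per gene and library. The authors' route to whole counts was not given in the sources used here. In the labels of the treated group PS and Pra both appear for pravastatin. All 30352 named rows matched RefSeq genes of Sscrofa11.1 by Entrez ID, and 24 unnamed rows (0.00906% to 0.0385% of a library) were left out.

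Counts were analysed with edgeR 4.0.16 in R 4.3.3 (filterByExpr by group, TMM, 1 quasi-likelihood fit of 6 libraries with a term per group, 3 residual degrees of freedom, common biological coefficient of variation 0.431, two-sided F test). P-values were adjusted by Benjamini-Hochberg over 18197 genes, with a threshold of 0.05. The fit was tested on simulated data. SEs of log2 fold changes come from the F statistic. Log2 CPM for descriptions used a prior count of 2. Transcript length was taken from counts and FPKM, and its trend was removed per library by loess (span 0.5). Replicate numbers pair nothing, since each library is a separate animal: deviations of same-numbered libraries correlated at 0.08, -0.11 and -0.09. The p-values of the fit of 6 libraries measure the spread between these animals.

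The 10 genes and the other lists were chosen with earlier results of these data known. All 10 were named. From other lists, genes past the threshold were named, or up to 4 with the smallest p. The 5 genes most like MUC2, TFF3 and SPDEF were named by rank. Listed genes not matched in the table were AGR3, TPSG1, ITLN1, MUC3A, MUC16, MUC17, CHST5, ALPI and CR2. Alternatives were DESeq2 1.42.0, limma 3.58.1 (voom, and trend on log2(FPKM + 1)), other scaling and filters, a replicate block, fewer libraries and, chosen after seeing the data, the legacy edgeR fit.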

Additional observations from a re-analysis of the deposited data

How the results depend on the processing

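ATOH1 stayed lower and CREB3L1 higher in IR than in control under every alternative run, but their calls did not. The count of the 10 genes called in IR against control, 2 as reported, was 0 with limma on log2(FPKM + 1), 0 without a count filter, 0 with the 4 libraries of the comparison alone, 1 with library size alone (ATOH1), 1 with the legacy edgeR fit (CREB3L1, chosen after seeing the data) and 0 to 7 with 1 library left out. The count of all genes called, 1103, became 4131 with DESeq2, 403 with limma on FPKM, 475 with library size alone, 0 with 4 libraries (4502 at an unadjusted p under 0.05) and 0 to 5342 with 1 library left out, being 0 without either control or either IR_Pra animal, 5342 without IR 1 and 3284 without IR 2. In IR_Pra against IR the count of all genes, 1 as reported, was 2872 with DESeq2, 0 with voom, 2 with library size alone, 2 without a filter, 0 with 4 libraries and 0 to 3728 with 1 library left out. For the 10 genes that count, 0 as reported, was 1 with DESeq2 (ATOH1) and 0 to 6 with 1 library left out. In IR_Pra against control DESeq2 called 72 genes, none of the 10, beside 0 in edgeR (623 at an unadjusted p under 0.05). TFF3 reversed without IR 1, at -2.51 in IR against control and 2.24 in IR_Pra against IR, beside 1.21 and -1.48 without IR 2. The cause of these shifts was not tested, except that a fit with fewer libraries has fewer degrees of freedom. In such fits the lone library of a group was assumed to vary like the other groups.

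The fit with a replicate block called 0 genes in IR against control (4679 at an unadjusted p under 0.05), 0 of the 10 (adjusted p = 0.0781 for ATOH1 and 0.0924 for CREB3L1), and 0 genes in IR_Pra against IR. The numbers pair nothing, so a call lost there is not read as a weaker effect. With EPCAM, CDH1 and CLDN7 as the epithelial reference the median of the 10 genes was 1.19 higher in IR than in control, in place of 0.61, and it was -0.69 in IR_Pra against IR, in place of -0.34, or -0.18 against the median of the epithelial list. With both IR animals in the fit the differences of MUC2, TFF3 and AGR2 did not pass the test.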

Other observations

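Of 10 genes of enteroendocrine cells 2 were called in IR against control and of 6 genes of tuft cells 1, each as lower, beside 2.68% of all genes. NEUROD1, a factor of enteroendocrine cells, had 4.26 and 4.67 CPM in control, 0.687 and 0.185 after IR, and 1.45 and 1.84 after IR_Pra, and fell by 3.38 ± 0.66 on the log2 scale (edgeR adjusted p = 0.0472). PAX6, which acts in the same cells, had 1.99 and 1.52 CPM in control, 0.111 and 0.225 after IR, and 1.06 and 1.52 after IR_Pra (-3.34 ± 0.58, adjusted p = 0.0413). POU2F3, the defining factor of tuft cells, had 6.25 and 7.83 CPM in control, 0.520 and 0.726 after IR, and 2.39 and 5.48 after IR_Pra (-3.49 ± 0.54, adjusted p = 0.037). In these 3 genes both IR animals were below all the others. Other genes of the lists lay the other way. SST, the hormone of D cells, had 35.8 and 46.9 CPM in control and 60.2 and 74.9 in IR, and SCG5, a secretory granule protein, had 7.79 and 7.35 and then 52.8 and 14.0. DCLK1, a kinase of tuft cells, had 5.54 and 6.81 CPM in control and 12.5 and 34.8 in IR (adjusted p = 0.0813), and was called higher with the length trend removed. Of the 6 tuft cell genes 3 had a positive and 3 a negative difference, and of the 10 enteroendocrine genes 3 and 7. SST, SCG5 and DCLK1 were named after their values were seen.

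Neighbours of MUC2 and TFF3 on the chromosome did not share one course. MUC6, a gastric-type gel-forming mucin beside MUC2, had 3.72 and 2.44 CPM in control, 0.836 in IR 1 and 0 counts in IR 2, where 3 counts would be 0.0396 CPM, and 1.43 and 1.46 in IR_Pra. MUC5B, on the other side, had 0.623 and 0.635 CPM in control, 1.71 and 1.82 after IR, and 0.425 and 0.919 after IR_Pra. TFF2 had 44.2 and 35.1 CPM in control, 46.8 and 2.998 after IR, and 36.2 and 21.5 after IR_Pra. TFF1 had 8.03 and 5.21 CPM in control, 2.51 and 0.211 in IR, and 1.80 and then 0 counts in IR_Pra. None of these 4 passed the test in any comparison (edgeR), and they were named after their values were seen.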
